A study of Mus musculus with 6 samples.

Results

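Skeletal muscle genes were read out in mouse skin RNA from 6 libraries. A list of 50 symbols for proteins of the contractile apparatus, calcium handling and energy supply of striated muscle defined the set, and 45 of them had a row among the 14484 genes of the count table. Myh3, Myh7, Myl2, Myl3 and Tnnc1 are not analysed here. The series compared 3 libraries of mice with both copies of Atr intact, named ATR WT 1 to 3, with 3 libraries of mice named ATR mD/mD 1 to 3, whose Atr gene lacks a piece of its kinase domain. Per the labels, both groups carried the Braf CA/+ genotype and a Cre transgene on a C57BL/6-129J background, so the Braf CA allele and Cre were shared by the controls. What drives the Cre is not given in the sources used here, and neither are the age or the body site of the skin. Whether muscle fibres carry the Atr deletion is therefore not known here. Every library is labelled as skin, whereas the design text speaks of nevi, the benign growths that pigment cells form. Nothing in the labels says that libraries of 1 genotype stem from different animals, so a p-value here measures only the spread between these samples. Values of a genotype are listed in the order of its libraries 1, 2 and 3.

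Striated muscle contracts when myosin heads of the thick filament pull on actin of the thin filament, inside repeating units called sarcomeres that are joined at Z-discs. A nerve impulse leads to opening of the ryanodine receptor, through which calcium leaves the sarcoplasmic reticulum. The calcium binds troponin, and the pump SERCA then returns it to the store. In mouse skin the known source of these transcripts is the panniculus carnosus, a thin sheet of striated muscle beneath the dermis and fat that is built mostly of fast fibres. Fast and slow fibres use different genes for the same part, such as Tnnt3 and Tnnt1 for troponin T.

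Sequencing depth was similar across libraries, at 34723600 to 46847751 gene counts each. The mean level of 27 hair follicle and hair shaft genes split the libraries without regard to genotype. It was 7.16 on the log2 scale of CPM (counts scaled to a common library size) for ATR WT 2, 7.28 for ATR WT 3 and 7.41 for ATR mD/mD 3. The low values were 1.94 for ATR WT 1, -0.27 for ATR mD/mD 1 and 2.15 for ATR mD/mD 2. Xist, the noncoding RNA made by the silenced X, was at 516 to 598 CPM in 3 libraries (ATR WT 2, ATR WT 3, ATR mD/mD 1) and at 0.658 to 1.02 CPM in the other libraries, where the Y-linked genes were expressed. Sex-linked transcripts were therefore mixed within both genotypes. Atr itself averaged 22.1 ± 3.87 CPM (SD, n = 3) over the ATR WT libraries and 22.6 ± 2.00 CPM (SD, n = 3) over the ATR mD/mD libraries, and a total over the whole gene does not check a deletion of part of it.

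The stretch before the start site is shown for 4 members whose values frame the results, because the members were high and low together from library to library. Acta1, skeletal muscle actin, had the highest level, Ttn, titin, has the longest exon sequence of the set, Pgam2, the muscle phosphoglycerate mutase of glycolysis, is a short gene that spanned a 6.54-fold range, and Casq2, the slow and cardiac calsequestrin, had the narrowest range. Each stretch is the 250 bases upstream of the start site in RefSeq, build GRCm38.p6, written 5′ to 3′ on the strand of the gene. Capitals mark letters that match an E-box (CANNTG, the element bound by MyoD family factors), a CArG box (bound by serum response factor) or a MEF2 box. The windows lie at chr8:123894776-123895025 on the minus strand for Acta1, chr2:76982548-76982797 on the minus strand for Ttn, chr11:5803797-5804046 on the minus strand for Pgam2 and chr3:102086165-102086414 on the plus strand for Casq2.
Acta1: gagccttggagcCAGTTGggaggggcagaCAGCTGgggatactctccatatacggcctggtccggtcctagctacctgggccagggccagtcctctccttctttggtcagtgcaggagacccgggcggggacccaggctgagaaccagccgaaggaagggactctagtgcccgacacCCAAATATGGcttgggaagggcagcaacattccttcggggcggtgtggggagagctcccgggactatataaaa
Ttn: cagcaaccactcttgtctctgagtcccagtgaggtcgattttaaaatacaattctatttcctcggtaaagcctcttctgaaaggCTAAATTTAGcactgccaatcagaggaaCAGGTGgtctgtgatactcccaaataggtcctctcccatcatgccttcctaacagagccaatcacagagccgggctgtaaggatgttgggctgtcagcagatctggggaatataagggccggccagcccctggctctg
Pgam2: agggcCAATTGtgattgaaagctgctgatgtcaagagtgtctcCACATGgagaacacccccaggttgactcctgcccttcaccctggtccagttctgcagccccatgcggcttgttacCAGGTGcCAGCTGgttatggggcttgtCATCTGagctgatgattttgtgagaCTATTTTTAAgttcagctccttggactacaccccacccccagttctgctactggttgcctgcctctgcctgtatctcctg
Casq2: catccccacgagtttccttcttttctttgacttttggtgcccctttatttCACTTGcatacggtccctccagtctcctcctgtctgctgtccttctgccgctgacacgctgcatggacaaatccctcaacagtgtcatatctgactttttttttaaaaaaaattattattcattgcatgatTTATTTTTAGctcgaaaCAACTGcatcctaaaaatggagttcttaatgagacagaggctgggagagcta
The Acta1 window held 2 E-boxes and 1 CArG box, and the Ttn window held 1 E-box and 1 MEF2 box. The Pgam2 window held 5 E-boxes and 1 MEF2 box, whereas the Casq2 window held 2 E-boxes and 1 MEF2 box. With both strands searched, 31 of 39 member windows, from 34 genes with an entry, held an E-box, against 66.2% of all 32851 promoter windows of that length. A CArG box was found in 5 of the 39 member windows and in 1.47% of all windows, and a MEF2 box in 9 of the 39 and in 1.69% of all windows. All 4 windows shown held a CArG or a MEF2 box, so they are not typical of the member windows. Motifs were counted separately, so 1 stretch may hold overlapping matches. These are matches of letters only, and binding was not measured.

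Muscle RNA made up a large and very uneven share of the libraries. The 45 members took 6.71%, 2.74% and 1.75% of all gene counts across the ATR WT libraries and 4.65%, 4.73% and 1.57% across the ATR mD/mD libraries. Their summed level, in CPM scaled by the trimmed mean of M values (TMM), was 72689.9, 26588 and 16826 across the ATR WT libraries and 46171, 46341 and 15978 across the ATR mD/mD libraries. Each genotype thus held libraries at both ends, and the highest library exceeded the lowest by 4.55 times. In bulk RNA, fewer muscle cells in a piece of skin and less muscle RNA per cell cannot be told apart.

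The members moved as 1 block. ATR WT 1 and both ATR mD/mD 1 and 2, called muscle-rich below, were all above the other 3 libraries for 43 of 45 members, an order found in 17.1% of all genes. Only Tnnt1 and Tnni1, the slow fibre troponins, did not follow it. ATR WT 1 was the highest library for 40 members. Myh2, Actc1 and Casq2 peaked in ATR mD/mD 1 instead, and Tnnt1 and Tnni1 in ATR mD/mD 3. The lowest library was ATR mD/mD 3 for 26 members and ATR WT 3 for 18 members, and for Tnni1 it was ATR WT 1. For 42 of 45 members the highest library was at least 3 times the lowest, a span reached by 11.7% of all genes. Among the 44 members with counts in every library the ratio of highest to lowest ran from 2.02 for Casq2 to 7.25 for Tcap, with a median of 4.69.

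**Figure D1:**
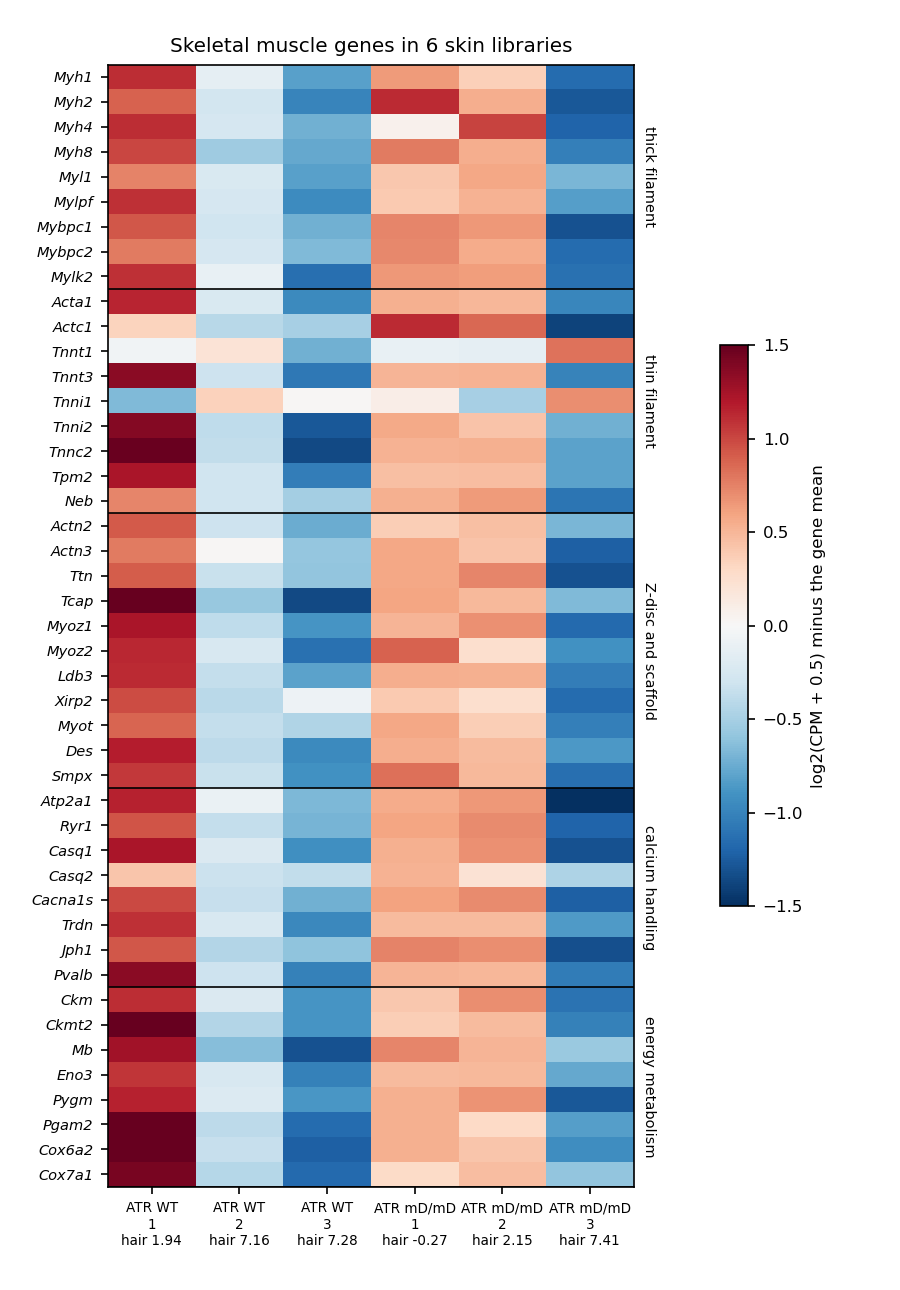
Level of the 45 skeletal muscle genes (rows, grouped by role) in the 6 libraries (columns), as log2(CPM + 0.5) minus the mean of the gene, with the mean log2 CPM of the hair genes under each library. Red columns for the 3 muscle-rich libraries run through all roles, and Tnnt1 and Tnni1 are the rows that break the pattern.

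The 3 libraries with much muscle RNA were the 3 with low hair gene levels. The lowest of the muscle-rich libraries, ATR mD/mD 1, was 1.74 times above the highest of the muscle-poor ones, ATR WT 2. Within the muscle-poor libraries, the hair genes were almost level at 7.16 to 7.41 log2 CPM, yet ATR WT 2 held 1.58 times the muscle RNA of ATR WT 3. Within the muscle-rich libraries, ATR WT 1 held 1.57 times the mean of ATR mD/mD 1 and 2, although its hair level of 1.94 lay between theirs. ATR mD/mD 1 and 2 had a muscle ratio of 0.996 at hair levels of -0.27 and 2.15. The libraries form separate clusters, so no correlation of muscle with hair genes is given. Muscle content did not follow the sex-linked transcripts: libraries with Xist stood at 16826, 26588 and 46171 CPM, and libraries with Y-linked genes at 15978, 46341 and 72689.9 CPM.

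**Figure D2:**
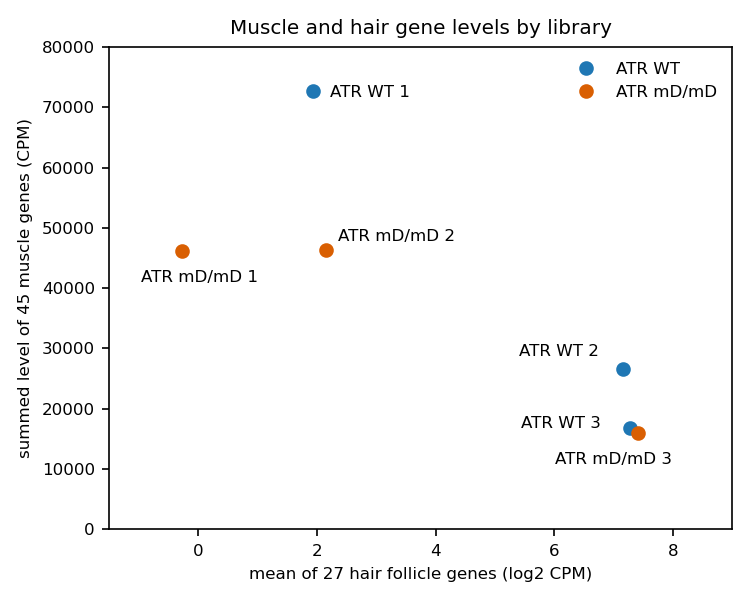
Summed level of the 45 skeletal muscle genes in CPM (vertical axis, from 0) against the mean log2 CPM of 27 hair follicle genes (horizontal axis), with 1 point per library coloured by genotype. The 3 libraries with hair levels of 2.15 or below hold 46171 CPM of muscle transcripts or more, and the 3 at 7.16 or above hold 26588 CPM or less.

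Markers of dermis, epidermis, vessels and fat varied less than the muscle genes. The summed level of 10 dermal fibroblast markers was 14789 to 18286 CPM in 5 libraries and 7783 CPM in ATR mD/mD 1. Adipocyte markers (10 genes) summed to 3934 to 5838 CPM. Keratinocyte and endothelial markers had the 3 muscle-rich libraries on top, as the muscle genes did. The 10 epidermal keratinocyte markers summed to 20190.3 to 24455 CPM in the muscle-rich libraries and 14497 to 17495 CPM in the others, and 5 of the 10 had that order gene by gene. The 8 endothelial markers summed to 366 to 422 CPM and 302 to 323 CPM in the same way, with 6 of the 8 in that order, and no marker of either list was at 0 counts in a library. The melanocyte markers (8 genes) ran with the hair genes, at 561 to 841 CPM in the 3 libraries with high hair gene levels and at 117 to 170.0 CPM in the other libraries. The part of these cell types in the muscle values was not tested.

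Markers of smooth muscle varied less across libraries than the skeletal muscle genes, and those of heart muscle were low. The 11 smooth muscle markers with a row summed to 855 to 1211 CPM over the ATR WT libraries and 1139 to 1253 CPM over the ATR mD/mD libraries, with none of them at 0, and their highest library exceeded the lowest by 1.47 times. The muscle-rich libraries were on top here too, at 1155 to 1253 CPM against 855 to 1139 CPM in the others. Gene by gene, 7 of the 11 had that order, against 17.1% of all genes. Acta2, smooth muscle actin, did not, and was highest in ATR mD/mD 3 at 349.6 CPM, the library with the least skeletal muscle RNA. Of the 10 cardiac markers 5 had a row, none of these was at 0 counts in any library, and they summed to 18.2 to 30.5 CPM over the ATR WT libraries and 21.7 to 35.9 CPM over the ATR mD/mD libraries. Tnnt2, cardiac troponin T, which is also made in developing skeletal muscle, was the highest of them at 5.14 to 24.1 CPM.

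Thick filament genes were led by fast myosin. Myh1, the heavy chain of fast IIx fibres, read 6868, 2882 and 1806 CPM across the ATR WT libraries against 4961, 4074 and 1422 CPM across the ATR mD/mD libraries. Myh4, the heavy chain of the fastest IIb fibres, read 2128, 833 and 599 CPM across the ATR WT libraries against 1038, 2005 and 429 CPM across the ATR mD/mD libraries. Myh2, the heavy chain of IIa fibres, read 403, 181 and 110.2 CPM across the ATR WT libraries against 476, 318 and 90.4 CPM across the ATR mD/mD libraries. All 3 heavy chains overlapped between genotypes. Myh8, the perinatal heavy chain, was low but detected everywhere, with 13.8, 4.46 and 3.73 CPM across the ATR WT libraries against 11.8, 9.93 and 3.03 CPM across the ATR mD/mD libraries. It followed the adult chains from library to library. Mybpc1 and Mybpc2, the slow and fast myosin binding proteins C, and the light chains Myl1 and Mylpf also had the 3 muscle-rich libraries on top, as did Mylk2, the kinase of the regulatory light chain. Myl1 had the narrowest range of the thick filament genes, 2.93-fold.

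The mixture of heavy chains was alike in 4 libraries and shifted in opposite directions in the other 2. Per kilobase of exon, Myh1 made up 71.5% to 73.7% and Myh4 21.6% to 24% of the summed Myh1, Myh2, Myh4 and Myh8 level in all ATR WT libraries and in ATR mD/mD 3. In ATR mD/mD 1 the Myh4 share was 16.2% and the Myh1 share 76.4%, and in ATR mD/mD 2 they were 31.6% and 63.4%. The Myh4 to Myh1 ratio was therefore 0.212 in the former and 0.498 in the latter, against 0.292 to 0.336 in the other libraries. ATR mD/mD 1 also had the highest Myh2 share, 7.33%, where the others lay between 4.28% and 4.96%. Myh8 stayed at 0.0883% to 0.141%. These genes are close relatives that lie side by side on chromosome 11 (Myh2 at chr11:67171027-67197517, Myh1 at chr11:67200052-67224575, Myh4 at chr11:67238029-67260446 and Myh8 at chr11:67277124-67308634, all on the plus strand of mm10), so reads that fit more than 1 of them make the split uncertain.

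**Figure D3:**
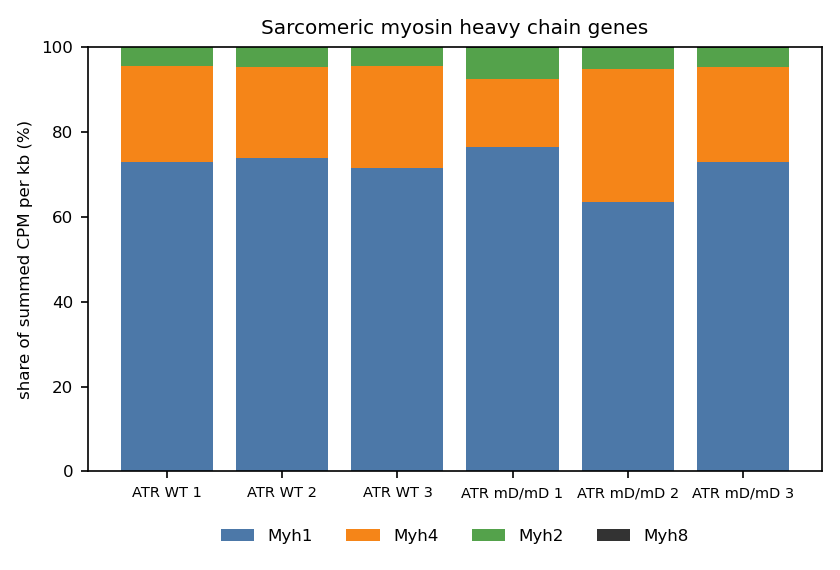
Share of Myh1, Myh2, Myh4 and Myh8 in their summed level per kilobase of exon (percent, vertical axis from 0) in each library; the Myh8 share, at most 0.141%, is too thin to see. ATR mD/mD 1 has the smallest Myh4 share (16.2%) and ATR mD/mD 2 the largest (31.6%), with the other 4 libraries at 21.6% to 24%.

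Thin filament genes gave the highest levels of all. Acta1 read 10559, 4103 and 2469.9 CPM across the ATR WT libraries against 6925, 6763 and 2444 CPM across the ATR mD/mD libraries. Tnnt3, fast troponin T, read 6989.6, 2201 and 1295 CPM across the ATR WT libraries against 3884, 3905 and 1362 CPM across the ATR mD/mD libraries. In both genes ATR WT 1 stood above every other library, and ATR WT 3 and ATR mD/mD 3 were nearly level. Per kilobase of exon, which allows genes to be compared, Acta1 averaged 3834 CPM, Tnnc2 (fast troponin C) 3302 CPM, Tnnt3 2807 CPM and Tnni2 (fast troponin I) 2084 CPM. Skeletal actin and the 3 subunits of fast troponin were thus the 4 highest members on that scale. Tpm2, a tropomyosin, and Neb, the nebulin ruler of the thin filament, shared the pattern, with ranges of 4.82-fold and 3.57-fold.

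Slow and cardiac forms of the thin filament with a row were barely present. Tnnt1, slow troponin T, had 47, 72 and 31 counts across the ATR WT libraries against 43, 47 and 97 counts across the ATR mD/mD libraries, which is 0.635 to 2.78 CPM. Tnni1, slow troponin I, had 25, 82 and 69 counts across the ATR WT libraries against 53, 33 and 89 counts across the ATR mD/mD libraries. Both were highest in ATR mD/mD 3, a library with little muscle RNA. Actc1, cardiac actin, which is also made in immature skeletal fibres, had 42, 21 and 21 counts across the ATR WT libraries against 82, 74 and 0 counts across the ATR mD/mD libraries, and the 0 allows up to 3.69 counts by an exact 95% Poisson interval that covers counting error only. It did follow the muscle-rich libraries.

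Z-disc and scaffold genes kept the same order. Des, desmin, which links myofibrils to each other, read 2162, 730.1 and 493 CPM across the ATR WT libraries against 1398, 1325 and 525 CPM across the ATR mD/mD libraries. Ttn, the molecular spring from Z-disc to M-band, read 1644, 696 and 581 CPM across the ATR WT libraries against 1311, 1454 and 354 CPM across the ATR mD/mD libraries. Xirp2, an actin-binding repeat protein of the muscle attachment sites and intercalated discs, read 479, 184 and 231 CPM across the ATR WT libraries against 320.1, 289 and 109 CPM across the ATR mD/mD libraries. ATR WT 1 was again on top for all 3, and Xirp2 differed from most members in that ATR WT 3 exceeded ATR WT 2. The remaining genes of this role were the alpha-actinins Actn2 and Actn3, the titin cap Tcap, the myozenins Myoz1 and Myoz2, Ldb3, Myot and Smpx. Their ranges ran from 3.17-fold for Actn2 to 7.25-fold for Tcap.

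Calcium handling genes included the member with one of the widest ranges and the member with the narrowest. Atp2a1, the fast fibre SERCA pump, read 5707, 2392 and 1615 CPM across the ATR WT libraries against 3785, 4021 and 862 CPM across the ATR mD/mD libraries, a range of 6.62-fold. Pvalb, parvalbumin, a calcium buffer of fast fibres, read 1998, 634 and 388 CPM across the ATR WT libraries against 1119, 1109.5 and 380.2 CPM across the ATR mD/mD libraries. Casq2 read 20.4, 12.1 and 11.7 CPM across the ATR WT libraries against 22.1, 17.8 and 10.9 CPM across the ATR mD/mD libraries. Casq2 was thus the member least unequal across libraries, although its order was the common one. Ryr1 (the ryanodine receptor), Cacna1s (its voltage sensor), Trdn (triadin), Jph1 (a junction protein) and Casq1 (fast calsequestrin) ranged from 4.21-fold to 5.77-fold.

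Energy genes were as uneven as contractile ones. Eno3, muscle enolase, read 1794, 726 and 422 CPM across the ATR WT libraries against 1186, 1203 and 502 CPM across the ATR mD/mD libraries. Ckm, muscle creatine kinase, read 1795, 714 and 449 CPM across the ATR WT libraries against 1105, 1352 and 386 CPM across the ATR mD/mD libraries. The pair agreed on which libraries were rich, and differed on the lowest, which was ATR WT 3 for Eno3 and ATR mD/mD 3 for Ckm. Pygm (glycogen phosphorylase), Pgam2, Mb (myoglobin), Ckmt2 (mitochondrial creatine kinase) and the respiratory chain subunits Cox6a2 and Cox7a1 ranged from 5.38-fold for Pygm to 6.94-fold for Cox6a2. All 8 genes of this role had the 3 muscle-rich libraries on top.

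Fast fibre genes far exceeded the slow fibre genes with a row in every library. Of the 9 listed slow fibre genes, Myh7, Myl2, Myl3 and Tnnc1 had no row, so the ratios leave them out. The sums also cover unequal numbers of genes, 14 against 5, so the size of a ratio depends on the lists. Per kilobase of exon, the summed level of 14 fast fibre genes was 116, 88.1 and 71.0 times that of the 5 slow fibre genes with a row across the ATR WT libraries, and 76.6, 85.4 and 103 times across the ATR mD/mD libraries. In summed CPM, which weights long genes more, the ratio was 45.6, 38.5 and 32.2 for ATR WT and 32.3, 35.1 and 41.7 for ATR mD/mD. Both genotypes spanned much the same interval. On the log2 scale the ratio of summed CPM was 5.26 ± 0.251 (SD, n = 3) for ATR WT and 5.18 ± 0.189 (SD, n = 3) for ATR mD/mD, and the difference of -0.09 is smaller than either SD. The slow sum was mostly Mybpc1, which gave 87.7% to 94.7% of it and is also made in fast fibres. Mybpc1 read 796, 339.8 and 252 CPM across the ATR WT libraries against 696, 656 and 169 CPM across the ATR mD/mD libraries. Myoz2, the slow fibre myozenin, read 31.6, 11.9 and 6.26 CPM across the ATR WT libraries against 26.7, 16.9 and 7.33 CPM across the ATR mD/mD libraries. Both of these slow genes had the muscle-rich libraries on top, as the fast ones did. Without the highest fast and the highest slow member, Myh1 and Mybpc1, the ratio of summed CPM was 279.6 to 590.3.

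Pairs of genes for the same part differed widely in how fast-biased they were. Tnnt3 exceeded Tnnt1 per kilobase of exon by 453 to 4986 times, and Tnni2 exceeded Tnni1 by 525 to 8306 times. For both pairs the ratio was lowest in ATR mD/mD 3, where fast transcripts were few and slow ones at their highest. Casq1 exceeded Casq2 by 13.6 to 41.9 times and Myoz1 exceeded Myoz2 by 10 to 17.8 times. Actn3, the alpha-actinin of fast fibres, was within a factor of 0.922 to 1.67 of Actn2, which all fibres make. Mybpc2 stood at 0.796 to 0.982 of Mybpc1 in all 6 libraries, a steadier ratio than those of the troponins.

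Transcript length went with which of 2 similar libraries was higher. Ranked over the 45 members, the log2 CPM of ATR WT 1 minus the mean of ATR mD/mD 1 and 2 was negatively related to exon length, with a Spearman rho of -0.50, and over the 13919 other genes with a length rho was -0.41. For ATR mD/mD 3 minus ATR WT 3 the values were -0.70 in the members and -0.42 in the other genes. Genes share the libraries and are not independent, so these are descriptions. In ATR WT 1 the 15 shortest members, of up to 1418 bases, exceeded the mean of ATR mD/mD 1 and 2 by a median of 0.84 on the log2 scale, and the 15 longest, of 3477 bases or more, by 0.33. For ATR mD/mD 3 against ATR WT 3 the medians were 0.33 for the shortest and -0.50 for the longest. Tcap, with 948 bases of exon, was higher in ATR mD/mD 3 than in ATR WT 3 by 0.70 on the log2 scale, while Ttn, with 113588 bases, differed by -0.71. Some short members had negative values in the same comparison, among them Pvalb (-0.03), Smpx (-0.23) and Myoz1 (-0.27). Between ATR mD/mD 1 and 2 the members gave a rho of -0.09 and the other genes -0.28. Differences of this size between single libraries thus varied with length across the whole table, and the part of length in the values of the members was not tested.

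**Figure D4:**
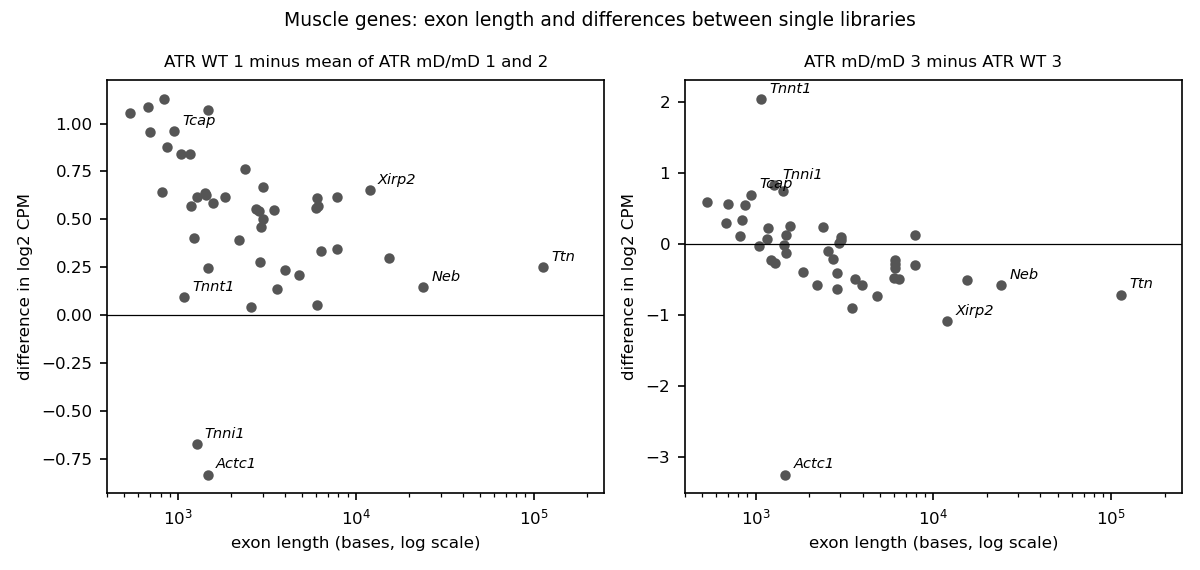
Difference in log2 CPM between libraries (vertical axes) against exon length in bases (horizontal axes, log scale), with 1 point per skeletal muscle gene; left, ATR WT 1 minus the mean of ATR mD/mD 1 and 2, right, ATR mD/mD 3 minus ATR WT 3. Short genes such as Tcap lie above long ones such as Ttn in both panels, and Actc1, Tnnt1 and Tnni1, with 97 counts or fewer per library, lie apart in 1 panel or both.

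No skeletal muscle gene passed the test between genotypes. In edgeR's quasi-likelihood test with Benjamini-Hochberg adjustment over 14484 genes, 0 of 45 members had an adjusted p under 0.05 against 0.0483% of all genes, which is 7 genes, all lower in ATR mD/mD. At an unadjusted p under 0.05 the count was also 0 of 45, against 1.66% of all genes, and DESeq2 called 0 members as well. The 3 libraries of each genotype did not separate for any member, against 4.84% of all genes. The summed level was 38701 ± 29837 CPM for ATR WT and 36164 ± 17481 CPM for ATR mD/mD (SD, n = 3 each). The authors' deposited table also listed 0 of 45 members at an adjusted p under 0.05, with 22 of its 14486 rows past that threshold.

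The estimates sat near 0 with wide errors. Log2 fold changes of ATR mD/mD against ATR WT ran from -0.36 to 1.04 with a median of -0.05, against 0.01 over all genes, and 34 of 45 lay within 0.2 of 0. Of the members 27 were negative and 18 positive, and with library totals in place of TMM the count of negative values was 19. The SE had a median of 0.640 and a lowest value of 0.334, so a change of the size of 1 log2 unit would have lain within 2 SE for a typical member. Acta1 had a log2 fold change of -0.09 (SE 0.643), Myh1 of -0.14 (SE 0.635), Atp2a1 of -0.16 (SE 0.692), Des of -0.06 (SE 0.630) and Eno3 of -0.03 (SE 0.588). Tnnt1 had a log2 fold change of 0.54 (SE 0.505) with the smallest unadjusted edgeR p of the members, 0.326, followed by Actc1 at 1.04 (SE 1.21), Xirp2 at -0.32 (SE 0.506), Casq2 at 0.20 (SE 0.334) and Tnni1 at 0.29 (SE 0.530). A single library set the sign of most members: leaving out ATR WT 1 gave a median of 0.76, leaving out ATR mD/mD 3 gave 0.31 and leaving out ATR WT 3 gave -0.39. Only Actc1 and Tnnt1 had the same sign whichever library was left out, and Actc1 turned to -0.59 in limma-voom.

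**Figure D5:**
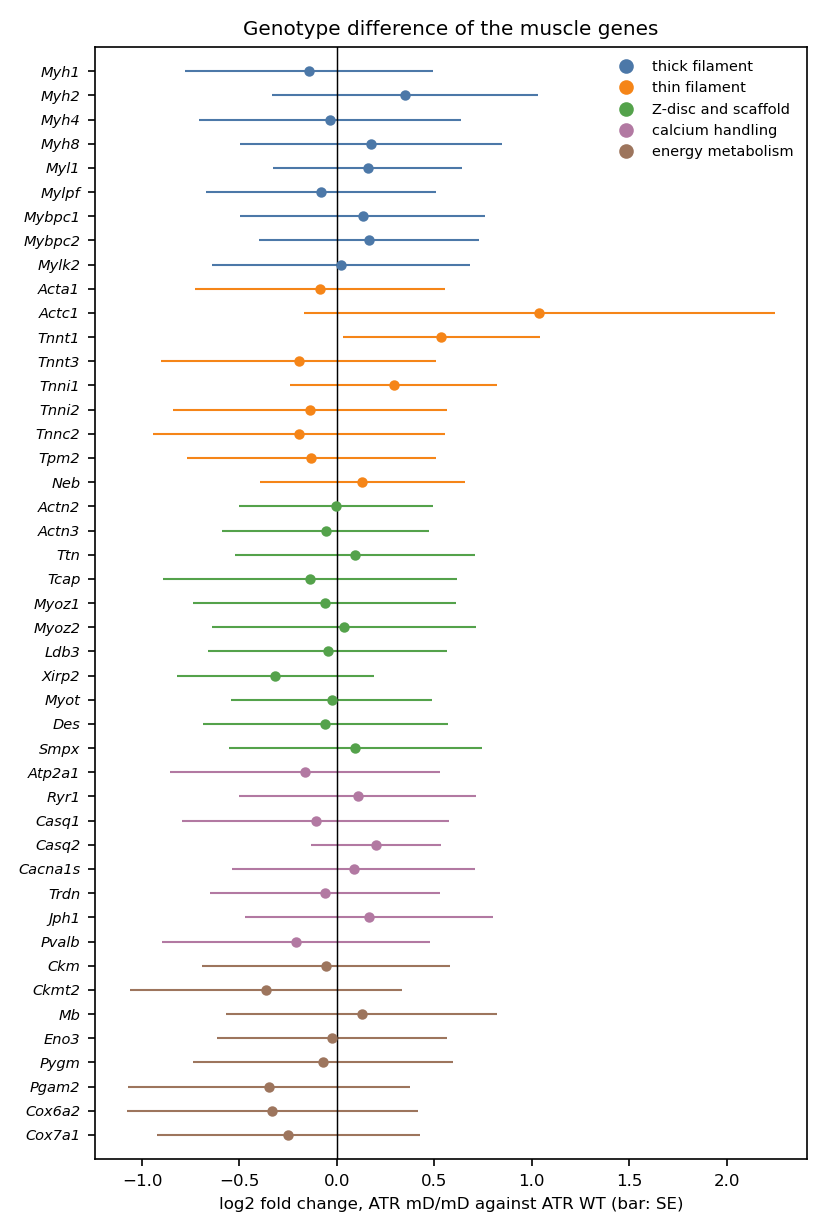
Log2 fold change of ATR mD/mD against ATR WT for each skeletal muscle gene (point) with its SE (bar), coloured by role. Values are from edgeR on 3 libraries per group without a covariate, with the SE derived from its F statistic. The points gather around 0, 34 of 45 within 0.2 of it, and the bars of 44 members reach across 0, Tnnt1 being the exception.

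Adding the hair level of each library to the fit moved the members down without bringing any past the threshold. With it, 43 of 45 log2 fold changes were negative, with a median of -0.57, and Tnnt1 and Tnni1 were positive. Of the members 12 had an unadjusted p under 0.05, all lower in ATR mD/mD, against 4.47% of all genes, but 0 had an adjusted p under 0.05 against 0.069% of all genes, and the lowest adjusted p was 0.695. Xirp2 had the smallest unadjusted edgeR p, 0.00267, at a log2 value of -0.85, followed by Myot, the Z-disc protein myotilin, at -0.58 with 0.00540. The others were Smpx, Atp2a1, Actn3, Myh1, Jph1, Ckmt2, Mybpc1, Casq1, Ldb3 and Cacna1s, at -0.93 to -0.56. Low hair levels occurred in 1 ATR WT library and high ones in 1 ATR mD/mD library, so this fit rests on single libraries, and the differences of those libraries also varied with exon length, as given above.

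Muscle genes outside the 45 gave the same picture, with exceptions. Of 31 other sarcomere and fibre genes 22 had the 3 muscle-rich libraries on top, as had 18 of 22 other genes of calcium and membrane excitability and 18 of 19 other metabolic genes. None of these lists held a gene with an adjusted p under 0.05 in either direction, and their median log2 fold changes were -0.09, -0.05 and -0.10. Their most abundant genes were Tpm1, a tropomyosin shared with other tissues, at 1152 to 4119 CPM, Srl (sarcalumenin) at 61.2 to 280.5 CPM and Aldoa, a glycolytic aldolase, at 1679 to 6179 CPM. Of 14 myogenic and satellite cell genes 10 followed the order, with Mef2a at 87.5 to 158 CPM as the most abundant. Of 9 neuromuscular junction genes 7 followed it, although the sum of that list, led by Agrn, varied only from 319 to 404 CPM. No gene of these lists passed the test either, and the median log2 fold changes were -0.01 and 0.07.

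Several fibre genes departed from the common order. Xirp1, a relative of Xirp2 at muscle attachment sites, read 57.2, 18.2 and 215 CPM across the ATR WT libraries against 25.6, 16.3 and 67.5 CPM across the ATR mD/mD libraries, with a log2 fold change of -1.41 (SE 0.931) and an unadjusted edgeR p of 0.176. It was highest in ATR WT 3, a library with little muscle RNA, and its log2 fold change was -0.07 without that library. Sln, sarcolipin, an inhibitor of the SERCA pump, read 3.47, 4.30 and 1.84 CPM across the ATR WT libraries against 9.52, 8.79 and 2.23 CPM across the ATR mD/mD libraries, with a log2 fold change of 1.10 (SE 0.588) and an unadjusted edgeR p of 0.108. Its groups overlapped through ATR mD/mD 3. The smallest p of each other muscle list belonged to Pgm1 (-0.61 on the log2 scale, SE 0.484), Pax3 (-0.98, SE 0.513), a factor of muscle precursors and of melanocytes, and Lrp4 (0.42, SE 0.302), an agrin receptor. Their unadjusted edgeR p-values were 0.249, 0.0993 and 0.207. Lrp4 kept the common order, at 108 to 149 CPM in the muscle-rich libraries against 71.5 to 87.0 CPM in the others. Pgm1 and Pax3 were higher in the 3 libraries with much hair RNA, at 24.4 to 34.0 CPM against 11 to 12 CPM for Pgm1 and at 4.81 to 7.92 CPM against 1.94 to 2.81 CPM for Pax3.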

How the data were processed

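RNA was measured in 6 mouse skin libraries, 3 per genotype. Per the labels' protocols, polyadenylated RNA was made into libraries with the TruSeq RNA v2 kit, which does not mark strand, so reads of overlapping antisense genes cannot be told apart. The build was mm10, and FastQC, TopHat2 2.0.12 and edgeR are named, per the submitters' processing notes. Not given in the sources used here were the read counter, its annotation and any filter on low counts. The deposited values are whole-number counts without normalization, 1 column per library, per the file headers. The same table has the authors' own result per gene: log2 fold change, mean log2 CPM, p-value and its adjusted form. Rows naming no gene held 4.93% to 5.72% of counts and were left out. The lowest total of a gene was 171 counts, and filters on low counts removed none.

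TMM scaling (factors 0.923 to 1.04) was followed by edgeR 4.0.16 in R 4.3.3 (quasi-likelihood, no covariate, Benjamini-Hochberg over 14484 genes, threshold 0.05). The script was tested on simulated data, in which genes varied independently of each other. The members moved together from library to library, a setting that the simulation does not cover. The alternatives were other scalings and filters, DESeq2 1.42.0, limma-voom 3.58.1, a replicate block, hair and Y-linked covariates, stricter and looser thresholds, and each library left out. Libraries within a group differed beyond sampling noise. Exon lengths (all 45 members) and gene positions came from GENCODE M21. Promoter windows came from RefSeq for 34 members.

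The members and lists were chosen with earlier results of these data known. Values of every library were given for the 2 most abundant members of each role, the 2 most abundant fast and slow members, the sarcomeric myosin heavy chains and the 5 members of smallest p. For every muscle list outside the members, the most abundant gene and the one with the smallest p were named. Also named were the 10 genes nearest in profile to the members. Tcap, Pgam2, Tnnc2, Tnni2, Myot, Myl1 and other members given by 1 value are outside that rule, chosen once their values were known.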

Additional observations from a re-analysis of the deposited data

How the results depend on the processing

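No member had an adjusted p under 0.05 in any of the alternatives run. Over all genes, 7 were called, against 39 in DESeq2, 4 with a Y-linked covariate and 4 to 10 with 1 library left out. The summed muscle level without its 5 most abundant genes was 37299.6 CPM in ATR WT 1, 23527 CPM in ATR mD/mD 1 and 24471 CPM in ATR mD/mD 2, and the same 3 libraries remained highest. Signs of single members were unstable, and the cause was not tested. Actc1 was at -0.59 in limma-voom and -0.67 with the hair covariate, where Casq2 was at -0.14. Des was at 0.0060 with library totals and 0.066 in limma-voom, and Eno3 at 0.035 and 0.087. Without ATR WT 1, log2 fold changes were 0.22 for Xirp2, -0.0045 for Tnni1, 0.59 for Myh1, 0.73 for Acta1, 0.84 for Des, 0.54 for Atp2a1 and 0.76 for Eno3. When ATR mD/mD 3 was dropped these genes stood at 0.031, -0.18, 0.23, 0.26, 0.27, 0.27 and 0.28, in the same order, and Casq2 stood at -0.037 when ATR mD/mD 1 was dropped. The median over the members ran from -0.39 to 0.76 with 1 library left out, and the fast to slow difference from -0.21 to 0.039.

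Whether the replicate numbers pair the samples is not settled by the values. For each gene, the mean of the genotype was subtracted from log2 CPM, and these deviations were correlated between libraries of different genotype. Deviations within a genotype add up to 0, so positive and negative correlations must occur together. For same-numbered libraries the correlations were 0.633, -0.509 and 0.573. ATR WT 1 was most like ATR mD/mD 1 and ATR WT 3 most like ATR mD/mD 3, whereas ATR WT 2 was most like ATR mD/mD 3 (0.701). The correlations were positive between libraries of like hair gene level and negative between the rest, so they cannot decide on pairing. With a replicate block, 6 genes and 0 members were called, the median over the members was 0.06, and Acta1 was at 0.032, Des at 0.11 and Eno3 at 0.13.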

Other observations

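Outside all gene lists, 10 genes had the library profile nearest to the mean profile of the 45 members. Likeness was measured over 6 libraries as the root mean square difference of log2 CPM, each gene centred on its own mean, and lay at 0.0687 to 0.107 for these genes. The members themselves ran from 0.0561 for Ldb3 to 1.31 for Actc1 with a median of 0.189, and the median of all genes was 0.792. Srpk3, a kinase of muscle that targets splicing factors, was nearest, with 19.0, 7.57 and 4.85 CPM across the ATR WT libraries against 15, 14.2 and 4.64 CPM across the ATR mD/mD libraries. Tmem38a, a potassium channel of the sarcoplasmic reticulum, read 262, 120.3 and 85.2 CPM across the ATR WT libraries against 203, 216 and 75.1 CPM across the ATR mD/mD libraries. Ank1, an ankyrin with a form in muscle, Adck3, a gene of coenzyme Q synthesis, Ppp1r1a, an inhibitor of protein phosphatase 1, and P2rx6, a purinergic receptor subunit, were also among the 10. The others were Klhl38, Hrasls, Gstp2 and Abcb4, of which Gstp2 has a near-identical relative that makes its counts uncertain. All 10 were higher in the 3 muscle-rich libraries than in the other libraries, which the choice itself fixes.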
